A study of Mus musculus with 8 samples.

Results

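Myelin protein genes were followed through the oligodendrocyte lineage of the mouse prefrontal cortex (PFC) and striatum. They were 9 genes chosen by symbol from the 31053 genes of the count matrices, namely Mbp, Mog, Mag, Mobp, Cnp, Cldn11, Opalin, Ermn and Mal. Single-cell RNA sequencing had been performed on male mice that carry a CRISPR-Cas9 small frameshift deletion in 1 copy of the histone methyltransferase gene Setd1a (Setd1a+/-) and on their wild-type (WT) littermates, without any other treatment. There were 2 WT and 2 Setd1a+/- libraries of each tissue, 8 in all, and each pooled the tissue of 2 mice. The labels give the strain as C57BL/6N. By the methods, the single mutant line was made in B6D2F1 embryos and then crossed to C57BL/6N over several generations. The labels give an age of 8 to 10 weeks, the methods give an older age, and age entered no test. The labels name the striatal tissue as NAc, while the design text and the methods name it as dorsal and ventral striatum, and it is called striatum here.

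Oligodendrocytes wrap axons of the central nervous system in myelin, a stack of membrane from which most cytoplasm has been squeezed out. They arise from oligodendrocyte progenitor cells (OPCs), which divide and then pass through a short newly formed stage before they make myelin. Myelin proteins have separate places in the sheath, such as its compact layers, its cytoplasmic channels, its inner and outer surfaces and the seals along its edges. Messenger RNAs of Mbp and Mobp are known to be carried out of the cell body into the myelin processes and translated there.

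The members differ in place and role. Mbp (ENSMUSG00000041607), myelin basic protein, holds the cytoplasmic faces of compact myelin together. Mobp (ENSMUSG00000032517, chromosome 9, 120149707 to 120181484) encodes another basic protein of compact myelin. Mal (ENSMUSG00000027375, chromosome 2, 127633226 to 127656695) encodes a small membrane proteolipid of lipid rafts, which epithelial cells also make. Cnp (ENSMUSG00000006782, chromosome 11, 100574904 to 100591729) encodes a phosphodiesterase that keeps the cytoplasmic channels of myelin open. Cldn11 (ENSMUSG00000037625, chromosome 3, 31149920 to 31164324) encodes the claudin of myelin tight junctions. Mag (ENSMUSG00000036634, chromosome 7, 30899176 to 30914873) encodes the adhesion glycoprotein of the layer that faces the axon. Mog (ENSMUSG00000076439, chromosome 17, 37010743 to 37023398) encodes an immunoglobulin-family protein of the outer surface. Opalin (ENSMUSG00000050121, chromosome 19, 41061710 to 41077113) encodes a transmembrane glycoprotein of oligodendrocytes. Ermn (ENSMUSG00000026830, chromosome 2, 58045113 to 58052864) encodes ermin, a protein that binds the actin cytoskeleton. Positions, given for 8 of the 9, are those of GENCODE vM21 on GRCm38, and no other gene of the matrices overlaps a member on the same strand.

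Promoter sequence was available for 8 of the 9 members in RefSeq (GRCm38.p6), and 4 are shown because the results below turn on these genes. They run 5′ to 3′ on the strand of the gene, from 250 bases before the RefSeq start, and stop where the GENCODE gene begins. Capitals mark matches, on either strand, to the core ACAAAG that SOX proteins bind and to CTGGNAC. The latter was searched as a site of the myelin regulatory factor MYRF, with any base allowed at N.
Opalin, chr19:41077114-41077363, minus strand: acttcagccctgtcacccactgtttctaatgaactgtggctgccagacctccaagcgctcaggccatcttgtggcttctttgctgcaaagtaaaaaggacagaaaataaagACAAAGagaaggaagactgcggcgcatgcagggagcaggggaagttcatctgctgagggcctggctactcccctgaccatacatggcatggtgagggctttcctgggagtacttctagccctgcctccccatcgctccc
Mobp, chr9:120149492-120149706, plus strand: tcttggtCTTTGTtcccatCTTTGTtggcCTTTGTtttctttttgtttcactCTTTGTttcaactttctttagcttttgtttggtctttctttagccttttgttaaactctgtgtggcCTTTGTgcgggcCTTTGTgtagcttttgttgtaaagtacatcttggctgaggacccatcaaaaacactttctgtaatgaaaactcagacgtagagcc
Cnp, chr11:100574689-100574903, plus strand: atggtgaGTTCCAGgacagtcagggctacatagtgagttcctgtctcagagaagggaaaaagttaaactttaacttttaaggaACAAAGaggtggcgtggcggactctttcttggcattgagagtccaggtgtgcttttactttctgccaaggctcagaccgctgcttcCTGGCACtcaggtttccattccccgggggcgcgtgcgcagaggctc
Mal, chr2:127656696-127656945, minus strand: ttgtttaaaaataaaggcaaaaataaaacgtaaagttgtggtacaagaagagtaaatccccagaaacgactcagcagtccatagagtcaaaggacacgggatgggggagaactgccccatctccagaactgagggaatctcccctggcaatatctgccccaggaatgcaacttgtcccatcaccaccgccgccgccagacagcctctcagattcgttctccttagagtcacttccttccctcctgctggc
The Mobp sequence held 6 matches to the SOX core, all on the opposite strand. Among 32536 different RefSeq promoters cut to the same 250 bases, 16.47% held at least 1 match to this core. Only 1 promoter held 6 or more, that of Mobp itself, from which the number 6 was taken. The Opalin sequence held 1 such match, 139 bases before the start. The Cnp sequence held 1 SOX core match and 2 matches to CTGGNAC, a motif that 15.94% of the promoters held. The Mal sequence held neither. Over the 8 members with a promoter, 4 held the SOX core and 3 held CTGGNAC. A match describes letters in this window and was not tested for binding.

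The libraries held 15154268 to 26277553 unique molecular identifiers (UMIs) each, of which 5999666 to 13521114 fell in the 1508 to 4361 cells per library that the authors had annotated. Of 23375 cell barcodes, 310 were annotated in 2 libraries and 1 in 3 libraries. CPM values are the counts of a gene scaled to equal totals of UMIs over the same cells. Setd1a itself, read as a check of the labels, had 46 to 206 UMIs per library. Its level was lower in the Setd1a+/- than in the WT library of the same replicate in each of the 4 pairs. The levels were 5.59 against 8.45, 9.33 against 11.2, 9.16 against 13.4 and 12.5 against 15.2 CPM. Across replicates the genotypes overlapped in the PFC. The annotated lineage comprised 1337 OPCs, 295 newly formed and 1694 mature oligodendrocytes in the PFC, and 1441, 165 and 2345 in the striatum. Their labels fitted markers outside the 9 genes: the summed level of 5 OPC markers was 2115 to 4177 CPM in OPCs and at most 860 CPM in the later stages, and that of 5 newly formed markers was 3482 to 5246 CPM in newly formed cells and at most 694 CPM in the other stages. The Setd1a+/- striatal library of replicate 2 stood apart, with 67 mature oligodendrocytes against 306 to 947 in the other libraries and 22 newly formed cells against 32 to 102.

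The 9 genes fell into an early and a late group in the newly formed stage, in both tissues. Levels are CPM of the UMIs summed over the cells of 1 type in 1 library. They count molecules by their 3′ ends and were not divided by gene length, so each gene is set against its own level in mature cells. In newly formed cells, Cnp was at 61.1 to 94.2% of its mature level in the same library and Mbp at 31.1 to 103%, whereas Ermn was at 0 to 15.2% and Mal at 0.23 to 5.65%. The stages had been clustered on genes that may include the members, so the order is described and was not tested.

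Cnp and Mbp were the members closest to their mature level in the newly formed stage in 7 of 8 libraries. In the striatal WT library of replicate 2 Cldn11, at 32.1% of its mature level, came before Mbp, at 31.1%. In newly formed cells Cnp was at 4830 and 5082 CPM in the PFC WT libraries, 4111 and 6024 in PFC Setd1a+/-, 6808 and 5016 in striatum WT and 7179 and 5415 in striatum Setd1a+/- (replicates 1 and 2 in this order throughout). Mbp was at 9308 and 7806 CPM in PFC WT, 11900 and 11923 in PFC Setd1a+/-, 12127 and 5175 in striatum WT and 12893 and 10142 in striatum Setd1a+/-. Every library was at 4111 CPM or more for both genes, and the striatal WT library of replicate 2 had the lowest Mbp. Cldn11, at 1147 to 2928 CPM, had a median of 36.7% of its mature level over the 8 libraries, and Mag, at 437 to 1676 CPM, a median of 34.7%.

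The other 5 genes were low until the mature stage. In newly formed cells Mog was at 106 to 270 CPM, a median of 8.90% of its mature level, and Mobp at 23.8 to 631 CPM, a median of 3.15%. Opalin was at 17.9 to 115 CPM, Mal at 11.7 to 138 CPM and Ermn at 0 to 321 CPM, with medians of 3.34, 1.21 and 0.63%. Against their level in free RNA (barcodes of 1 to 50 UMIs) of the same library, Opalin, Ermn and Mal were at 64.3% or less in the PFC and at 6.33 to 423% in the striatum. Mobp was at 5.12 to 93.4% in the PFC and 11.0 to 236% in the striatum, and Mog at 164 to 331% and 60.1 to 313%. The low levels rest on few molecules, 2 to 16 UMIs of Opalin, 3 to 11 of Mal and 0 to 14 of Ermn per library. Ermn had no UMI in either PFC Setd1a+/- library, and its highest value, 321 CPM, came from 14 UMIs in the 22 cells of the striatal Setd1a+/- library of replicate 2. Only 13.6% of these 22 cells had an Ermn UMI before thinning, and 9.09% after it. The summed level of 5 neuronal markers in the newly formed cells of that library was 803 CPM, with 3 of the 5 detected. It was 1642 and 2074 CPM in the striatal WT libraries and 191 CPM in the striatal Setd1a+/- library of replicate 1. The part of these markers in the Ermn value was not tested.

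In OPCs Cnp was at 43.9 to 124% of its free RNA level in the PFC and 47.5 to 141% in the striatum, and each of the other 8 members was at 21.2% or less. Cnp was at 261 to 377 CPM in the PFC and 338 to 413 CPM in the striatum, which was 3.68 to 5.35% of its mature level. Mbp was at 92.5 to 206 CPM, and each of the other 7 was at 0 to 48.2 CPM. As a share of cells, with each cell thinned to 1000 UMIs so that depth was equal, 27.3% of PFC OPCs (95% Wilson interval 24.98 to 29.8%) and 30.9% of striatal OPCs (28.5 to 33.3%) had a Cnp UMI. In cells outside the lineage, which do not make myelin, this share was 1.26 to 9.34% in the PFC and 4.14 to 8.01% in the striatum, astrocytes aside. It was 1.26% (0.908 to 1.75%) in PFC excitatory neurons and 4.23% (3.64 to 4.90%) in striatal D1 medium spiny neurons (MSNs). Before thinning the shares were 41.6 and 44.0% in OPCs, at median depths of 1651 and 1625 UMIs per cell, and 8.83 and 11.9% in these neurons, at 6546 and 3167 UMIs. Intervals of shares of cells cover counting error only.

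**Figure D1:**
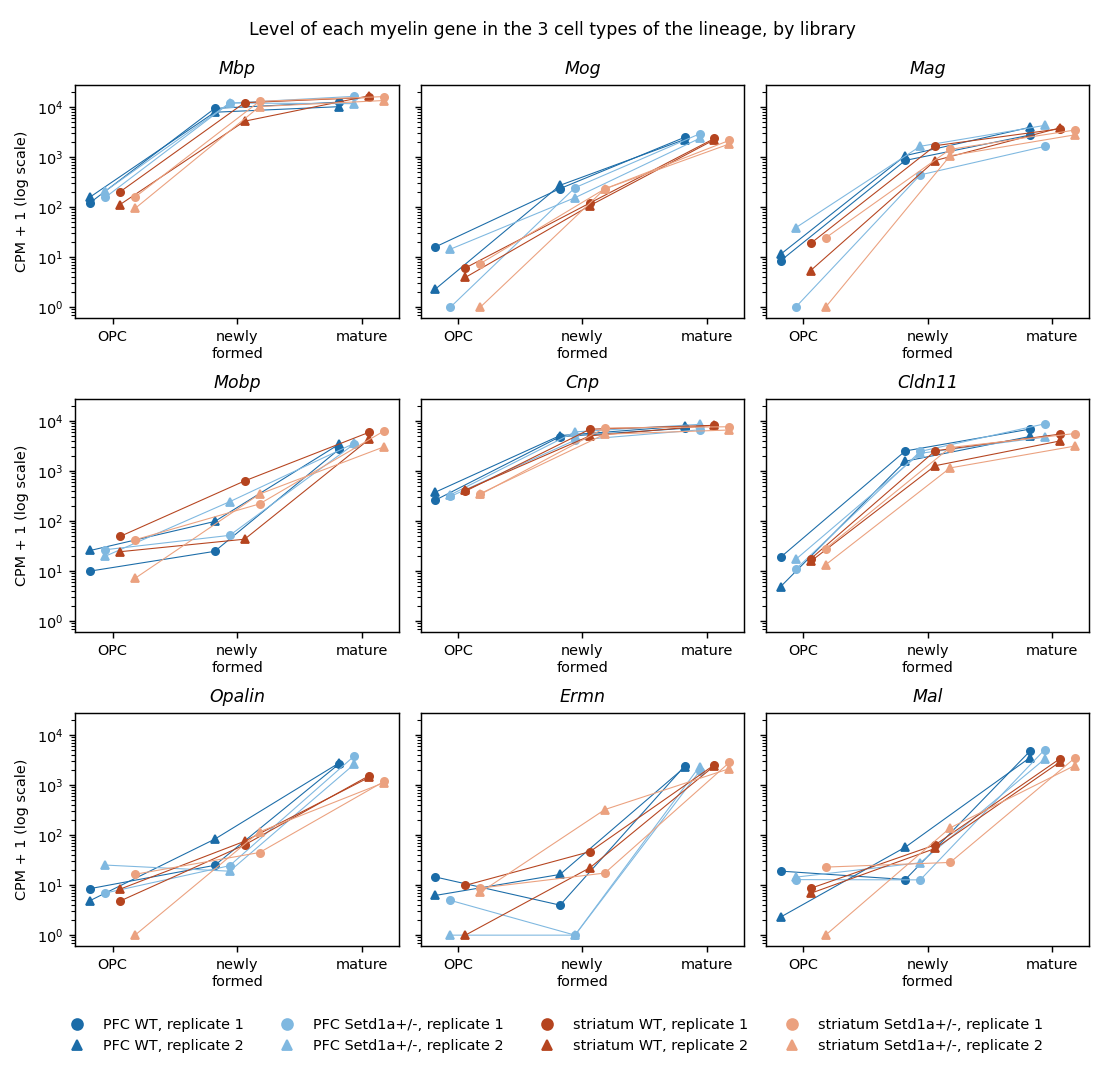
Level of each of the 9 myelin genes (CPM + 1, log axis) in OPCs, newly formed and mature oligodendrocytes, with 1 point and line per library. In the newly formed stage Cnp and Mbp lie at 4111 CPM or more in all 8 libraries, while Opalin, Ermn and Mal lie at 0 to 321 CPM.

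In mature cells all 9 genes were high in all 8 libraries. Together they made up 4.09 to 5.02% of all UMIs of mature cells in the PFC and 3.64 to 4.85% in the striatum. In newly formed cells the share was 1.60 to 2.23% and 1.26 to 2.50%, and in OPCs it was at most 0.0700%. The lowest sum in mature striatal cells was that of the Setd1a+/- library of replicate 2, and the other 3 striatal libraries lay between the extremes of the PFC. The share ranged from near 0 to mature values between single newly formed cells: its 5th and 95th percentiles over single cells were 0.15 and 4.49% in PFC newly formed cells and 2.81 and 6.28% in PFC mature cells.

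Single cells, read from the same UMIs and stage labels, showed the same order, which is again a description. After thinning to 1000 UMIs the median OPC had a UMI of 0 of the 9 genes, the median newly formed cell of 3 and the median mature cell of 8, in both tissues. At least 7 of the 9 genes were found in 97.0% of mature cells of the PFC and 96.3% of those of the striatum, and no mature cell had fewer than 3. All 9 were found in 49.2% of PFC and 37.7% of striatal mature cells. The newly formed cells spread almost evenly from 1 to 4 genes, and 11.2% of them in the PFC and 14.5% in the striatum had 5 or more.

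**Figure D2:**
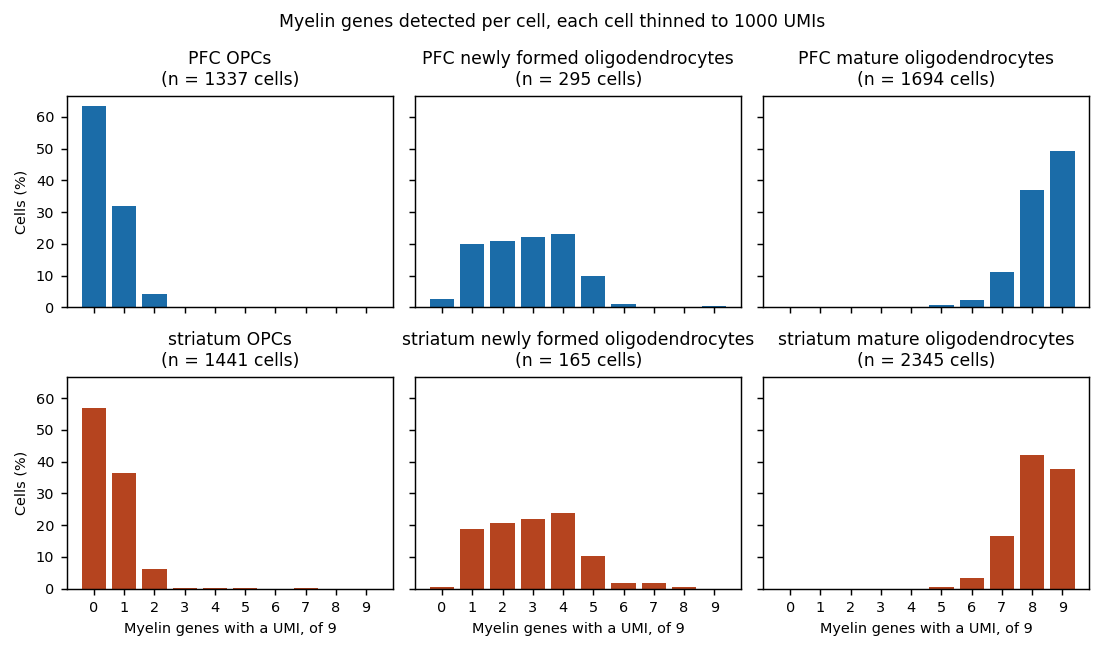
Percent of cells (vertical axis) by the number of the 9 myelin genes with at least 1 UMI (horizontal axis) after thinning each cell to 1000 UMIs, for the 3 stages in the PFC (top) and the striatum (bottom). OPCs pile up at 0 and 1, newly formed cells spread from 1 to 5, and mature cells pile up at 8 and 9.

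Newly formed cells in which few of the 9 genes were found after thinning mostly had Cnp. Among newly formed cells with at most 2 of the 9 genes, Cnp was found in 90.7% of 129 cells in the PFC and 98.5% of 66 cells in the striatum, and Mbp in 43.4 and 34.8%. Among cells with 3 or 4 of them, Mbp was found in 99.2% of 133 PFC cells and 96.0% of 75 striatal cells, Cldn11 in 88.0 and 90.7%, Mag in 42.1 and 50.7%, and Mog in 18.8 and 5.33%. Among cells with 5 or more, 33 in the PFC and 24 in the striatum, every cell had Mag, 78.8 and 54.2% had Mog, 6 and 12 of these cells had Mobp, and Opalin, Ermn and Mal were each found in at most 20.8%. Of the 90 PFC newly formed cells with Mag, 100% also had Cnp and 98.9% Mbp, whereas of the 221 with Mbp 40.3% had Mag. Shares for the less often found genes rest on few cells, so an order among them cannot be read. Of the 53 PFC and 17 striatal cells with Mog, 54.7 and 76.5% had Mag and 81.1 and 88.2% Cldn11. Of the 15 striatal cells with Mobp 26.7% had Mog. Of the 9 striatal cells with Opalin 55.6% had Mag and 44.4% Cldn11. A gene with more molecules is found in more cells at any depth, and the groups of cells were formed on the same counts, so this is a description. Cells with 5 or more genes also had more UMIs, a median of 3707 against 2748 in the PFC and 3550 against 2628 in the striatum, and whether some of them held the RNA of more than 1 cell was not tested.

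Opalin was the member that differed between the tissues in mature oligodendrocytes. Its level was 2645 and 2758 CPM in PFC WT and 3784 and 2589 in PFC Setd1a+/-, against 1531 and 1418 in striatum WT and 1176 and 1114 in striatum Setd1a+/-. The 4 PFC libraries did not overlap the 4 striatal libraries, and the mean was 2944 ± 564 CPM in the PFC and 1310 ± 197 CPM in the striatum (SD, n = 4 libraries each). It was 2.17-fold lower in the striatum (log2 FC -1.12 ± 0.18 SE, adjusted p = 0.00801, edgeR's quasi-likelihood test with genotype as covariate and Benjamini-Hochberg adjustment over 6918 genes). A gene was called at an adjusted p under 0.05 and a fold change over 1.5, which 187 genes (2.7% of those tested) met. Opalin was called under all 15 settings tried. The fit took the 4 libraries of a tissue as independent. Yet WT and Setd1a+/- libraries of the same replicate deviated alike in mature cells (r = 0.44 in the PFC and 0.17 in the striatum). The p-values between tissues may therefore be too small. In thinned cells Opalin was found in 77.3 to 82.8% of mature cells of the PFC libraries and 40.3 to 58.3% of those of the striatal libraries, without overlap. Before thinning these shares were 84.8 to 91.0% and 53.7 to 69.4%.

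Several measures moved with the tissue beside Opalin. The summed level of 5 microglial markers in mature oligodendrocytes was 104 to 272 CPM in the PFC and 11.8 to 20.7 CPM in the striatum, with all 5 detected in 7 of 8 libraries and 2 in the Setd1a+/- striatal library of replicate 2. Opalin was at most 40.5 CPM in PFC microglia themselves and 54.6 CPM in striatal microglia. The striatum was digested with papain for longer than the PFC, and the cells were annotated in each tissue separately, so tissue cannot be told apart from these steps. The neuronal markers were at 227 to 691 CPM in the PFC and 331 to 1253 CPM in the striatum, and the OPC markers at 35.4, 51.7, 59.9 and 5.71 CPM in the PFC and 2.54 to 9.57 CPM in the striatum. The 5 markers of newly formed oligodendrocytes (Bmp4, Enpp6, Gpr17, Bcas1 and Itpr2) were at 244 to 315 CPM in the PFC and 321 to 407 CPM in the striatum, but the other 4 without Enpp6 overlapped, at 129.97 to 164 and 126 to 168 CPM. The part of these markers was not tested.

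The other 8 members were not called between the tissues in mature cells. Mobp, the compact myelin protein gene with the 6 promoter matches shown above, was at 2730 and 3432 CPM in PFC WT, 3451 and 3559 in PFC Setd1a+/-, 5923 and 4286 in striatum WT and 6305 and 3034 in striatum Setd1a+/-. It was above every PFC library in 3 of the 4 striatal libraries, with a log2 FC of 0.63 ± 0.23 and an adjusted p of 0.180 by edgeR. Without the Setd1a+/- striatal library of replicate 2, the one with 67 mature cells, its log2 FC was 0.85 and its adjusted p 0.0212, which made it a call. The log2 FC of Mbp was 0.35 ± 0.17 (striatum against PFC), of Mal -0.41 ± 0.19 and of Cldn11 -0.41 ± 0.24. For Ermn it was 0.22 ± 0.16, for Mag 0.16 ± 0.26, for Cnp 0.07 ± 0.15 and for Mog -0.17 ± 0.16. Adjusted p-values of these 7 genes were 0.290 to 0.872 by edgeR. The median log2 FC over the 9 members was 0.07, and that over all genes tested was -0.01.

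Some members spread widely between libraries of the same group. Mag in PFC mature cells had 2734 and 3901 CPM in WT libraries, and 1624 and 4266 CPM in Setd1a+/- libraries, so that both replicate 1 libraries lay below both replicate 2 libraries. Leaving out the lowest of these, the Setd1a+/- library of replicate 1, turned the direction of Mag between the tissues, from a log2 FC of 0.16 to one of -0.05. Cldn11 was at 6833 and 8729 CPM in the replicate 1 libraries of the PFC, WT first, and at 4869 and 4733 CPM in those of replicate 2. In the striatum it was at 5427 and 5574 CPM in replicate 1 and 3958 and 3128 CPM in replicate 2. Replicates were not compared by a test.

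**Figure D3:**
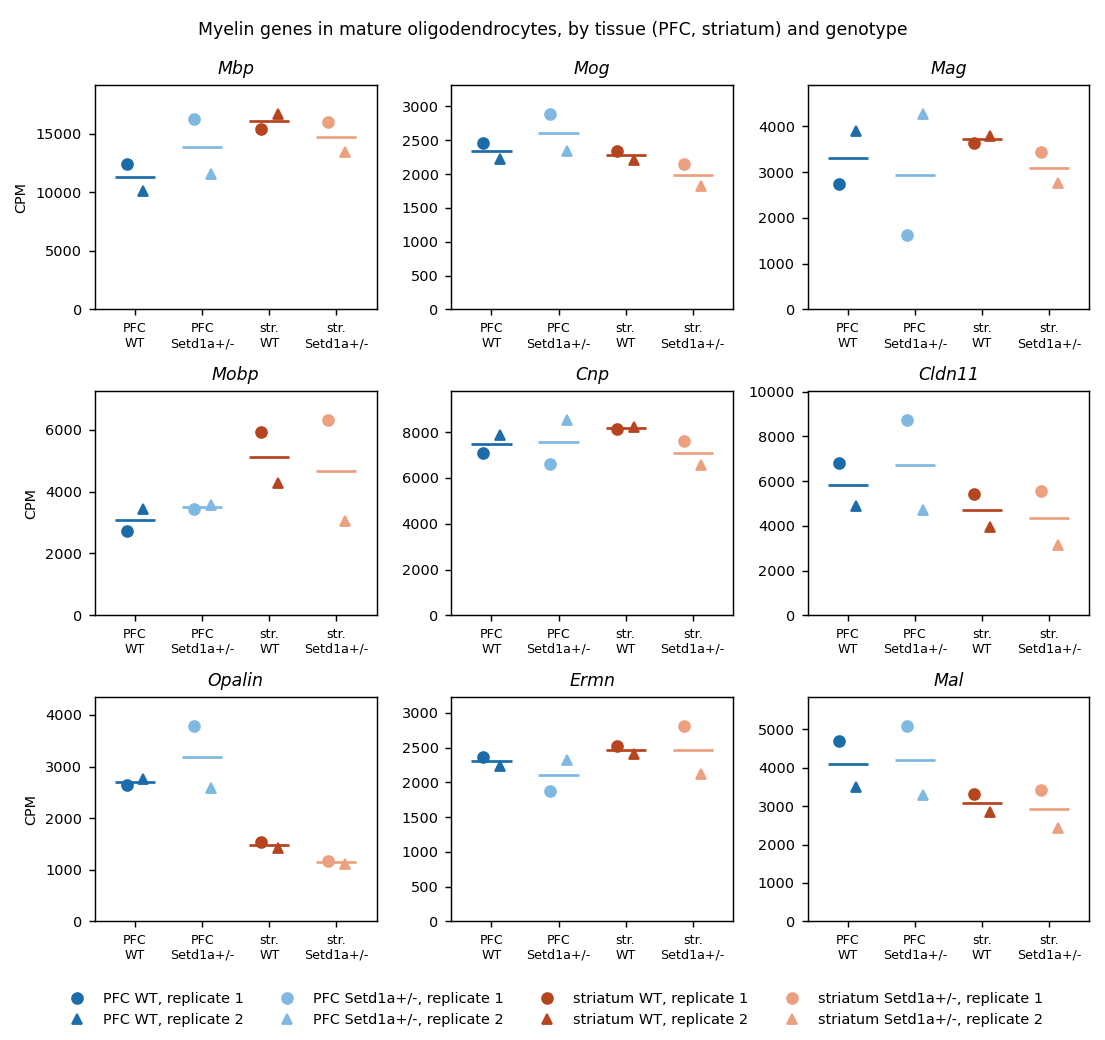
Level of each of the 9 genes in mature oligodendrocytes (CPM, axes from 0), with 1 point per library and a line at the mean of the 2 libraries of a group; "str." is striatum. Opalin is the gene whose PFC libraries, at 2589 CPM or more, all lie above the striatal libraries, at 1531 CPM or less, and that passed the test.

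In the earlier stages no member was called between the tissues. Of 3015 genes tested in newly formed cells 2 were called (0.0663%), and of 7612 in OPCs 12 were called (0.158%). Mobp in newly formed cells was at 23.8 and 96.9 CPM in PFC WT, 50.7 and 242 in PFC Setd1a+/-, 631 and 42.3 in striatum WT and 218 and 344 in striatum Setd1a+/-. The tissues overlapped, and the log2 FC was 1.95 ± 0.60 with an adjusted p of 0.320 by edgeR, over 7 members tested. It was called without the PFC Setd1a+/- library of replicate 2 (log2 FC 2.67, adjusted p = 0.0265) and without the filter on low counts. It was also called with same-numbered WT and Setd1a+/- libraries of a tissue as pairs (log2 FC 1.77, adjusted p = 0.0495), a fit added after seeing the data that takes out the spread between pairs and so gives p-values that are too small for tissues. Mobp was at or below its free RNA level in 6 of the 8 libraries, and the part of free RNA was not tested. These values rest on 4 to 111 UMIs per library. In OPCs 4 members passed the filter, and the lowest adjusted p among them was 0.363, that of Mobp with a log2 FC of 0.86 ± 0.40.

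Other myelin and oligodendrocyte genes, a list of 42, were read beside the members. Of the 36 that passed the filter in mature cells 4 were called, against 2.7% of all genes tested, and of the 32 that passed it in OPCs 1 was called, against 0.158%. The tetraspanin genes Cd9 and Tspan2, which encode membrane proteins of the sheath, were lower in the striatum. Cd9 was at 1447 to 1982 CPM in the PFC and 705 to 1096 CPM in the striatum (log2 FC -0.81 ± 0.18, adjusted p = 0.0339). Tspan2 was at 1150 to 1528 CPM and 612 to 906 CPM (log2 FC -0.79 ± 0.16, adjusted p = 0.0235). Enpp6, a choline-related phosphodiesterase gene used as a marker of new oligodendrocytes, was higher in the striatum at 189 to 278 CPM against 114 to 151 CPM (log2 FC 0.85 ± 0.15, adjusted p = 0.0125). Plekhb1, which encodes a membrane-binding protein, was higher in mature striatal cells (log2 FC 0.78 ± 0.15, adjusted p = 0.0197) and also in striatal OPCs (log2 FC 0.88 ± 0.16, adjusted p = 0.0396). In OPCs the neuronal markers were at 1168 to 1350 CPM in the PFC and 1391 to 1708 CPM in the striatum. The OPC markers were at 2582 to 4177 and 2115 to 2400 CPM, and the part of either set was not tested. The list thus had 5 calls between the tissues, 4 in mature cells and 1 in OPCs. Unlike that of Opalin, these calls were lost when certain libraries were left out: leaving out the PFC WT library of replicate 1, the striatal WT library of replicate 2 or the striatal Setd1a+/- library of replicate 1 ended all 5, with adjusted p-values of 0.0530 to 0.195 by edgeR, while every log2 FC kept its sign. The median log2 FC of the list in mature cells was -0.09, and in newly formed cells 0 of its 29 tested genes were called.

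No member was called between Setd1a+/- and WT mice in any stage of either tissue. In these 6 comparisons edgeR called 0 of 2453 to 8014 genes (0%), where 81 to 186 genes had an unadjusted p under 0.05, 1.47 to 4.12% of those tested. DESeq2 called 1 gene over the 6. With same-numbered WT and Setd1a+/- libraries as pairs (a replicate block) edgeR called 2, 1 and 3 genes in PFC OPCs, newly formed and mature cells and 1, 4 and 10 in the striatum, none of them a member. A call needed a fold change over 1.5 in the PFC and over 2 in the striatum. The members that passed the filter on low counts were 3, 6 and 9 in PFC OPCs, newly formed and mature cells and 5, 7 and 9 in the striatum. In mature cells the log2 FC (Setd1a+/- against WT) was between -0.10 and 0.36 in the PFC, with 7 of 9 above 0, and between -0.35 and 0.02 in the striatum, with 1 of 9 above 0. Standard errors were 0.20 to 0.45 and 0.22 to 0.31, and each adjusted p rounded to 1.00 by edgeR. A missing call at 2 libraries per genotype does not show that a gene did not differ. On counts simulated from PFC mature cells, the genotype test called none of the changes of 2-fold. The medians of the members were 0.22 and -0.11, beside medians of 0.00 over all genes tested in either tissue.

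The genotype differences with the lowest unadjusted p among the members were in newly formed cells. Mbp in PFC newly formed cells, with the values given above, had a log2 FC of 0.49 ± 0.21, but its adjusted p was 1.00 by edgeR. The OPC markers in these cells were at 860 and 852 CPM in the WT and 612 and 645 CPM in the Setd1a+/- libraries. Their part was not tested. Mog in striatal newly formed cells was at 119 and 106 CPM in WT libraries, against 229 CPM in each Setd1a+/- library, from 10 to 42 UMIs each. The neuronal markers in these cells were at 1642 and 2074 CPM in the WT and 191 and 803 CPM in the Setd1a+/- libraries. The OPC markers were at 585 and 667 CPM in the WT and 339 and 482 CPM in the Setd1a+/- libraries. What part either marker set had was not tested. The log2 FC of Mog was 1.03 ± 0.34 with an adjusted p of 0.958 by edgeR. Mobp in newly formed cells became a call when 1 library was left out. It was higher in Setd1a+/- libraries without the PFC Setd1a+/- library of replicate 1 (log2 FC 2.18, adjusted p = 0.00760) and without the striatal WT library of replicate 1 (log2 FC 2.66, adjusted p = 0.0133). Without the PFC Setd1a+/- library of replicate 2 its log2 FC in the PFC was -0.13. With all libraries its log2 FC was 1.24 ± 0.77 in the PFC and -0.52 ± 0.69 in the striatum, opposite in sign.

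Whether the genotype difference itself differed between the tissues was tested by the interaction of genotype and tissue. edgeR called 0 genes (0%) in OPCs (8637 tested), newly formed (3763) and mature cells (7820). At an unadjusted p under 0.05 there were 178, 125 and 95 genes, and DESeq2 called 0. Among the members the largest interaction relative to its error was that of Mog in newly formed cells, a log2 difference of 1.34 ± 0.49, with an adjusted p of 1.00 by edgeR. In mature cells that of Opalin was -0.66 ± 0.34: its Setd1a+/- mean was above the WT mean in the PFC and below it in the striatum.

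Free RNA was read from droplet barcodes of 1 to 50 UMIs, which were taken to hold no cell. There were 289216 to 356900 of these per library with 767117 to 2530808 UMIs. In them the 9 genes together were at 2221 to 5354 CPM in the PFC and 1886 to 5772 CPM in the striatum. In the cell types outside the lineage their sum was 75.4 to 912 CPM in the PFC and 113 to 1360 CPM in the striatum. It was 93.1 to 135 CPM in PFC excitatory neurons. Members outside the lineage were compared by their percent of the free RNA level, and in both tissues Mal in endothelial cells and Cnp in astrocytes had every library above the highest median of the other 8 members in those cells. Mobp in PFC excitatory neurons, at 3.4 to 7.0%, and Cnp in striatal interneurons, at 10.6 to 14.4%, also passed this limit, where the medians of the others reached 3.0 and 9.8%. Mag in PFC microglia did not, and was at 18.8 and 12.0% in WT and 111.8 and 24.8% in Setd1a+/- libraries, against medians of 5.8, 11.8, 27.1 and 8.5% for the other members. The value of 111.8% rests on 7 UMIs in 46 cells and was 66.6%, from 4 UMIs, without 1 cell that held at least 5 of the 9 genes. In PFC excitatory neurons Mbp was at 2.7 to 5.9% of its free RNA level, Cnp at 1.7 to 5.0% and Mal at 0.8 to 2.4%. Compared within each library, Cnp also exceeded the median of the other members in all 4 libraries of several other types. These were PFC excitatory neurons, D1 and D2 MSNs, neuroblasts, striatal microglia and the endothelial cells of both tissues. In PFC interneurons and PFC microglia it did so in 3 of 4 libraries.

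Mal in endothelial cells was at 310 and 215 CPM in PFC WT, 383 and 260 in PFC Setd1a+/-, 310 and 235 in striatum WT and 426 and 144 in striatum Setd1a+/-. This was 103 to 246% of its free RNA level in the PFC and 91.2 to 171% in the striatum, where the median of the other 8 members in the same cells was 1.7 to 5.7% and 4.3 to 19.9%. The excess over the other members held in all 8 libraries. After thinning, 25.4% of 1562 PFC endothelial cells had a Mal UMI (95% Wilson interval 23.3 to 27.6%) and 24.3% of 1998 striatal ones (22.4 to 26.2%). In the other cell types outside the lineage the share was 0.252 to 2.07% in the PFC and 1.06 to 3.204% in the striatum, with 0.252% (0.122 to 0.520%) in PFC excitatory neurons and 1.26% (0.951 to 1.66%) in D1 MSNs. Without thinning the shares were 53.5 and 48.2% in endothelial cells, at median depths of 2368 and 2379 UMIs, and 2.02 and 2.59% in these neurons.

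Cnp in astrocytes was at 203 and 224 CPM in PFC WT, 197 and 214 in PFC Setd1a+/-, 319 and 300 in striatum WT and 241 and 181 in striatum Setd1a+/-. It reached 34.2 to 76.4% of its free RNA level in the PFC and 33.9 to 72.4% in the striatum, while the median of the other members in astrocytes was at most 9.7%. A Cnp UMI was found after thinning in 18.4% of 554 PFC astrocytes (15.4 to 21.9%) and 24.0% of 857 striatal astrocytes (21.3 to 27.0%), against the 1.26 to 9.34% and 4.14 to 8.01% given above for the other types outside the lineage. Before thinning the shares were 34.5 and 44.8%, at median depths of 2026 and 1974 UMIs. Each of the other members was at 15.0% or less of its free RNA level in astrocytes.

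**Figure D4:**
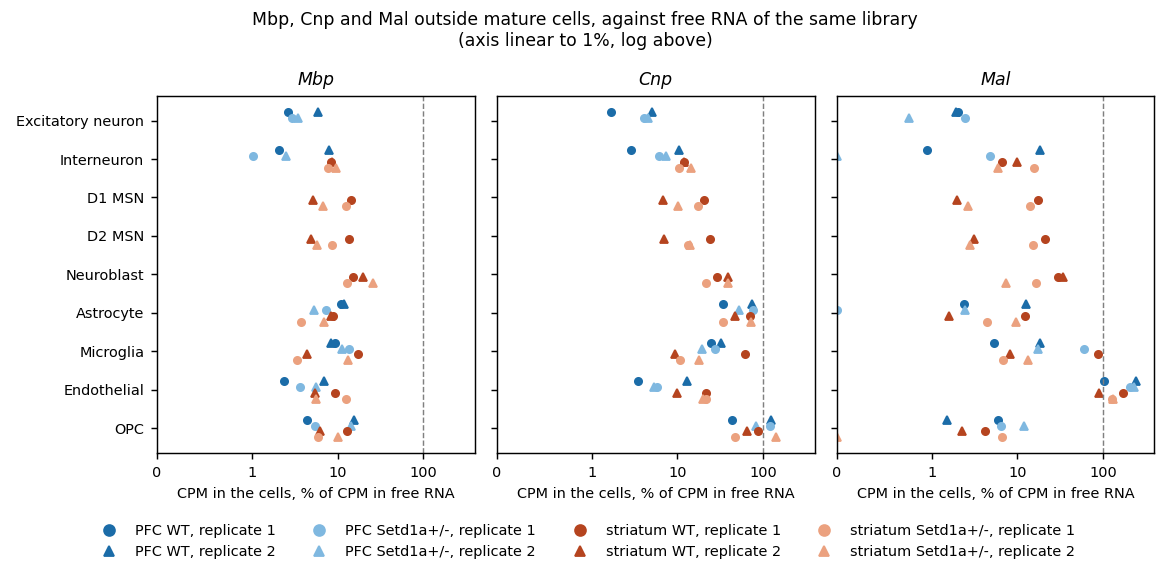
CPM of Mbp, Cnp and Mal in the cell types outside the newly formed and mature stages, as percent of the CPM in free RNA of the same library (axis linear to 1% and log above), with 1 point per library and a dashed line at 100%. Mal in endothelial cells lies at 91.2 to 246%. Cnp lies at 33.9 to 76.4% in astrocytes and at 43.9 to 141% in OPCs. Mbp lies at 2.7 to 5.9% in PFC excitatory neurons and reaches 25.9% in neuroblasts, its highest value shown.

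A few cells named as other types carried most of the myelin genes. At least 5 of the 9 genes were found after thinning in 4 such cells over the PFC libraries and in 88 over the striatal libraries, among them 31 of 3904 D1 MSNs, 21 of 1998 endothelial cells and 9 of 437 neuroblasts of the striatum. They were 39 in the striatal WT and 42 in the striatal Setd1a+/- library of replicate 1, against 7 and 0 in those of replicate 2. The 31 D1 MSNs had a median of 4541 UMIs against 3154 for the other D1 MSNs, and over the other types with such cells the median was between 2360 and 6905. The mean summed level of the 9 genes was 415 CPM with and 200 CPM without them in D1 MSNs, 379 and 191 CPM in D2 MSNs, 697 and 478 CPM in striatal endothelial cells and 798 and 342 CPM in neuroblasts, a comparison added after seeing the data. In microglia it was 524 with and 254 CPM without 2 of 271 striatal cells, and 523 with and 353 CPM without 1 of 482 PFC cells. Mal in striatal endothelial cells was at 88.9 to 159% of its free RNA level without them, and Cnp in striatal astrocytes kept its range of 33.9 to 72.4%. Cnp in striatal interneurons was then at 7.21 to 14.4%. No doublet caller was run, and whether these cells were doublets was not tested.

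Barcodes of 51 to 100 UMIs had a lower CPM of 7 members than smaller ones in all 8 libraries. Mbp and Mobp varied with the tissue. The CPM in barcodes of 51 to 100 UMIs was divided by that in barcodes of 1 to 20 UMIs of the same library. For Mbp this ratio was 2.69 and 1.43 in PFC WT, 3.64 and 1.69 in PFC Setd1a+/-, 1.10 and 0.68 in striatum WT and 1.17 and 0.81 in striatum Setd1a+/-. For Mobp it was 2.53 and 1.23 in PFC WT, 3.04 and 1.37 in PFC Setd1a+/-, 0.59 and 0.52 in striatum WT and 0.75 and 0.59 in striatum Setd1a+/-. Both genes were thus above 1 in all 4 PFC libraries, and both were highest in replicate 1. The other 7 members were below 1 in all 8 libraries, with medians of 0.27 for Mag to 0.53 for Opalin. In the barcodes of 1 to 50 UMIs, Mbp was also the member with the highest level relative to mature cells of the same library in 6 of 8 libraries, at 10.2 to 22.4% of it, and Opalin in the other 2. The material in these barcodes was not identified.

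**Figure D5:**
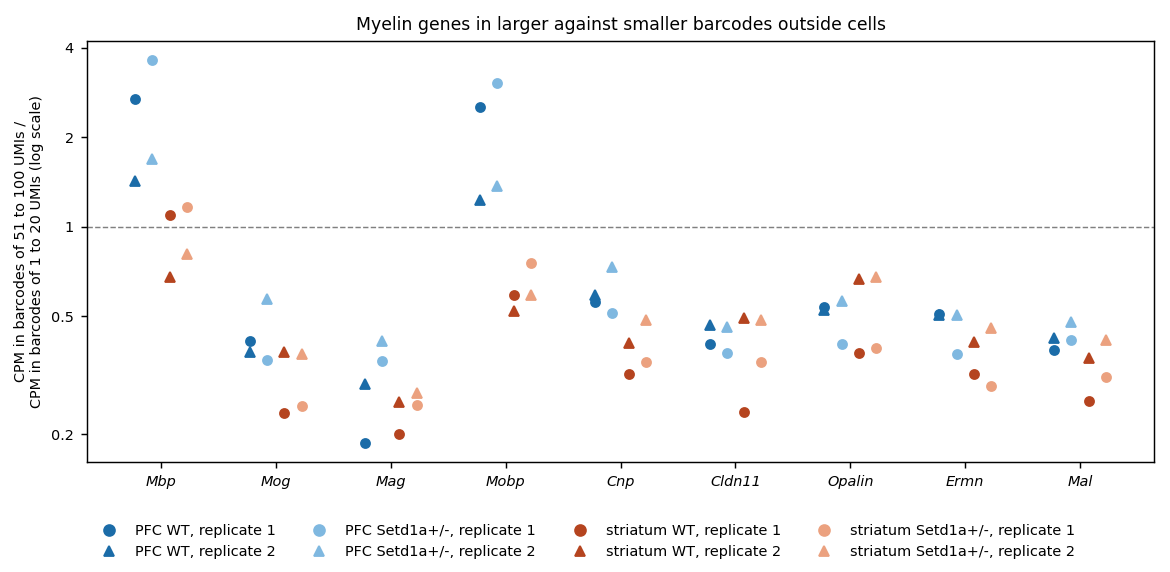
CPM of each myelin gene in barcodes of 51 to 100 UMIs divided by its CPM in barcodes of 1 to 20 UMIs (log axis), with 1 point per library and a dashed line at 1. Mbp lies above 1 in 6 of 8 libraries and Mobp in 4 of 8, and the other 7 genes lie below 1 in all 8.

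The members had similar profiles over cell types, and the genes most like them were sought over the 18 combinations of tissue and annotated cell type. For each of 4548 other genes with at least 100 CPM in 1 combination, Pearson's r was computed between its log2(CPM + 1) profile and the mean standardized profile of the 9 members. Genes among the 10 highest were Tmem88b (r = 0.96), Tmem125 (0.96), Pacs2 (0.95), Galnt6 (0.94), Ptgds (0.94), Tprn (0.93), Polr3e (0.93), Josd2 (0.92) and Ppp1r14a (0.91). Galnt6, which encodes a glycosyltransferase, was at 177 CPM in PFC mature cells and 4.26 CPM in PFC newly formed cells. Among the members the pair most alike was Mag and Cldn11 (r = 0.99) and the pair least alike Cnp and Mal (r = 0.54), the genes also found in astrocytes and endothelial cells. The combinations share libraries and free RNA, and these values are descriptions.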

How the data were processed

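Single cells of PFC and striatum were captured on the 10x Genomics platform after papain digestion, and a gradient removed debris. Per the labels and methods, the authors made the UMI counts with Cell Ranger 3.0.2 (build mm10), and the deposited counts are unnormalized whole numbers for every barcode and gene. The authors removed cells with under 800 genes or over 10% mitochondrial UMIs and named clusters with Seurat 3.2.0. All annotated cells were found in the matrices and met these limits. The deposited barcode lists, gene lists and cell annotations hold other information than measurements. The deposited gene-by-cell tables were left out, since row numbers stand in place of gene names in them.

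For each library and cell type, UMIs were added up and given as CPM. The members, gene lists, markers and tests were chosen with earlier results of these data known. All 9 members are named, with the 10 genes of the most similar profile (1 of them is not reported here) and, of a list of 42 other oligodendrocyte genes, up to 5 called per test. The sums of counts were tested in R 4.3.3 with the quasi-likelihood method of edgeR 4.0.16 and libraries as replicates. Genes were filtered with filterByExpr (at least 10 counts), scaled by TMM and adjusted after Benjamini-Hochberg over all genes tested. Libraries pool animals, so p-values measure the spread between pools. DEsingle, the test over cells in the methods, was not used. Alternatives were DESeq2 1.42.0, its size factors, no filter, no fold cutoff, each library left out and the replicate block. By the methods, a replicate is made of 1 WT and 1 mutant library, and same-numbered libraries were taken as pairs: the deviations of paired libraries from their group means correlated at 0.34, 0.34 and 0.44 in PFC OPCs, newly formed and mature cells and at 0.17, 0.20 and 0.17 in the striatum. Nothing ties these numbers between tissues. Tests between tissues without a block took paired libraries as independent, so their p-values may be too small. The tests were checked on counts simulated from the mature cells with changes of known size. The fold changes were recovered, but the genotype and interaction tests called none of the smaller changes. These had the size of the fold cutoff for the striatum. With the larger changes, the share of false calls of these tests was above the threshold. Cells were thinned with a fixed seed to 1000 UMIs, and none was shallower. Wilson intervals were computed with scipy 1.17.1 in Python 3.11.15, and promoters came from RefSeq (GRCm38.p6). A count of 0 UMIs allows up to 3, for counting error only.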

Additional observations from a re-analysis of the deposited data

Results flagged for a closer look

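In the groups of 4 libraries of a tissue, 40 sets of values (the 9 genes and their sum in newly formed and mature cells) were screened for a library far from the other 3, by Dixon's ratio of the gap to the range at its 95% critical value. Chance flags about 1 in 20 such groups. Opalin in mature PFC cells was high in the Setd1a+/- library of replicate 1, at 3784 CPM against 2589 to 2758 CPM in the other 3 libraries. Mobp in mature PFC cells was low in the WT library of replicate 1, at 2730 CPM against 3432 to 3559 CPM. Opalin in newly formed PFC cells was high in the WT library of replicate 2, at 81.6 CPM against 17.9 to 23.8 CPM. Ermn in newly formed striatal cells was high in the Setd1a+/- library of replicate 2, at 321 CPM against 16.4 to 45.5 CPM.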

How the results depend on the processing

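Opalin in mature cells was lower in the striatum and called under every setting, with log2 FCs of -1.21 to -0.96 and adjusted p-values of 0.00715 to 0.0476 when 1 library was left out. The number of genes called moved with the settings. Without the filter on low counts, edgeR called 12, 5 and 9 genes between genotypes in PFC OPCs, newly formed and mature cells, 2, 9 and 15 in the striatum, 351, 71 and 743 between tissues in OPCs, newly formed and mature cells, and 7 for the interaction in OPCs. Members called between tissues without it were 2 in newly formed cells (Ermn, log2 FC 3.50, and Mobp, log2 FC 1.85) and 2 in mature cells (Opalin and Mobp, log2 FC 0.66). With the replicate block, which pairs same-numbered libraries, it called 2, 1 and 3 genes between genotypes in the PFC, 1, 4 and 10 in the striatum, 77, 14 and 368 between tissues and 1 for the interaction in newly formed cells, and changed no call of a member. Between tissues this block rests on a shared number alone: the deviations of same-numbered PFC and striatal libraries correlated at -0.015 to 0.12. A block within each tissue, added after seeing the data, gave 392, 68 and 683 genes between tissues and called Mobp in newly formed cells beside Opalin in mature cells, but its p-values are too small for tissues, since the spread between pairs is taken out. DESeq2 called 1 gene between genotypes in PFC mature cells and 33 and 4 between tissues in OPCs and newly formed cells.

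Leaving out 1 library at a time gave 0 to 13, 0 to 16 and 0 to 1 genes between genotypes in the PFC, 1 to 35, 1 to 16 and 3 to 52 in the striatum, 6 to 130, 0 to 21 and 50 to 293 between tissues, and 0 to 1, 0 to 1 and 0 to 0 for the interaction. Members called ranged from 0 to 1 between genotypes in newly formed cells of either tissue, from 0 to 1 between tissues in newly formed cells and from 1 to 2 in mature cells. Mag between tissues in mature cells had a log2 FC of -0.05 to 0.52 over these fits and turned negative, at -0.055, without the PFC Setd1a+/- library of replicate 1. Mobp between genotypes in newly formed cells turned to -0.13 in the PFC without the Setd1a+/- library of replicate 2 and to 2.66 in the striatum without the WT library of replicate 1, with ranges of -0.13 to 2.49 and -1.27 to 2.66. The count of genes between tissues in mature cells was 76 without the PFC WT library of replicate 1, 69 and 50 without the striatal WT libraries, 59 without the striatal Setd1a+/- library of replicate 1 and 293 without the PFC Setd1a+/- library of replicate 2. Calls of other genes between tissues in mature cells were lost in 5 of these 8 fits for Cd9, 4 for Tspan2, 3 for Enpp6 and 5 for Plekhb1, and in OPCs in 6 for Plekhb1, with adjusted p-values up to 0.195. The cause of these changes was not tested. With 2 libraries per genotype the fits left 1 library in an arm, which was assumed to vary like the others. Of 122 alternative summed levels of the 9 genes by cell type, 120 moved by less than the SD between libraries; the others were PFC mature cells without mitochondrial and ribosomal protein genes in the total (49881 against 44582 CPM) and neuroblasts without cells of at least 5 members (342 against 798 CPM). The same cells widen that SD in D1 and D2 MSNs and microglia. The level of the 9 genes in free RNA moved in 2 of 4 alternatives, to 5789 CPM in barcodes of 51 to 100 UMIs in the PFC (3747 at 1 to 50 UMIs) and to 5612 CPM in those of 1 to 20 UMIs in the striatum (3810), and values relative to free RNA move with it. Thinning to 800 UMIs moved the mean number of members per cell in 6 of 18 cases, in mature cells to 8.02 and 7.88 from 8.31 and 8.13. Low-level members in newly formed cells are limited by counts of 0 to 111 UMIs per library.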
